A study of Homo sapiens with 28 samples.

Results

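Cancer-testis antigen genes are active in male germ cells, are silent in most adult tissues and reappear in many tumours, where their products can be seen by T cells. The 9 described here are MAGEA3, MAGEA4, MAGEA6, MAGEA10 and MAGEA12 of the MAGE-A family, MAGEC1 and MAGEC2 of the MAGE-C family, SAGE1 and SSX1. They were taken by name from a table of 60487 rows, of which 60483 carry an Ensembl gene identifier, and all 9 were found. All of them lie on the X chromosome. In somatic cells, genes of this class are kept off mainly by DNA methylation of their promoters. EZH2, the catalytic subunit of Polycomb repressive complex PRC2, silences genes by another route, the methylation of histone H3 at lysine residue K27.

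RNA was sequenced from 2 human lung adenocarcinoma cell lines, H1944 and A549, both carrying MGT#1-mVenus, a reporter that drives the fluorescent protein mVenus. Cells were given GSK126, an inhibitor of EZH2, at 5 µM for 11 days and sorted by FACS into mVenus-high and mVenus-low cells. Other cells were given TGF-β1, a cytokine that drives epithelial-mesenchymal transition, at 5 ng/ml for 11 days and sorted in the same way. Naive cells of each line carried the reporter, received neither agent, were not sorted and served as controls. Sorting and agent therefore cannot be told apart in comparisons with naive cells. No day is recorded for naive cells, so a difference in time in culture cannot be told apart from the agent either. H1944 had 3 libraries in each of these 5 groups. A549 had 2 libraries of GSK126 high, 3 of GSK126 low, 3 of TGF-β1 high, 2 of TGF-β1 low and 3 of naive cells. The replicates carry the letters A, B and C. Nothing in the labels says that they came from separate cultures, so p-values measure the spread between libraries, which may be technical.

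Total counts ran from 1660148 to 13280592 per library in H1944, where naive library C was the deepest, and from 2013449 to 9550143 in A549. In H1944 the mitochondrial share of counts was 4.46% to 5.85% in treated and 6.59% to 7.41% in naive libraries, and its part in the results was not tested. Levels are CPM, a gene's counts scaled to a common library total. Background was read from 381 olfactory receptor genes, called silent here because their group means were all below 5 CPM. Some of them may still be expressed at a low level. Their summed signal ran from 3.62 to 75.1 CPM in H1944 libraries and from 6.27 to 313 CPM in A549 libraries. It was above 150 CPM in 2 A549 libraries, TGF-β1 high B and naive A. In H1944 the reporter followed the sort, with mVenus at 859 ± 49.2 CPM in GSK126 high and 243 ± 35.8 CPM in GSK126 low libraries (SD, n = 3 each). It was at 2346 ± 82.5 CPM in TGF-β1 high, 791 ± 34.3 CPM in TGF-β1 low and 356 ± 34.4 CPM in naive libraries (SD, n = 3 each). The same gate name therefore stands for different reporter levels under GSK126 and TGF-β1. EZH2 transcript, which a catalytic inhibitor does not target, averaged 76.8 ± 8.49 CPM under GSK126 (SD, n = 6) and 58.1 ± 4.98 CPM in naive cells (SD, n = 3) of H1944. The keratin genes KRT8 and KRT18 marked both lines as epithelial, at 3015 and 1716 CPM in naive H1944 and 6284 and 3807 CPM in naive A549. The lung lineage factor NKX2-1 was at 0.0251 CPM in naive H1944 and 0.442 CPM in naive A549, so the lung origin of the lines was not visible in that marker.

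Promoter sequences are shown because most of the members share short letter strings and CpG dinucleotides, the pairs at which DNA methylation occurs. MAGEA4, which was near 0 in H1944, is left out of the print. Windows of 300 bases, 250 before and 50 after the annotated start, were taken from RefSeq (GRCh38.p14), which has an entry for 8 of the 9 genes and none for MAGEA10. The last 120 bases before the RefSeq start are printed 5′ to 3′ on the strand of the gene, with CpG pairs in capitals. Gene positions given elsewhere come from GENCODE, whose starts can differ from these. GENCODE places SAGE1 at 135889205 to 135913061 on the plus strand, so the SAGE1 bases printed here lie inside that gene. They may not be its promoter.
MAGEA3, chrX:152698674-152698793, plus strand: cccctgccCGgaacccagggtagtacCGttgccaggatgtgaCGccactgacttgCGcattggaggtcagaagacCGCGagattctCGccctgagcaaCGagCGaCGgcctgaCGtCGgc
MAGEA12, chrX:152733637-152733756, plus strand: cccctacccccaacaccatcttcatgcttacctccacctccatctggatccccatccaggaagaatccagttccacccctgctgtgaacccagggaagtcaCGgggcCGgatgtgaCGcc
MAGEC1, chrX:141903774-141903893, plus strand: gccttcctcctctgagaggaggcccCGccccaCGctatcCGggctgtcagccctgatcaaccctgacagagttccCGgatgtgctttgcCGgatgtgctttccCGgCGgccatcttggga
MAGEC2, chrX:142205291-142205410, minus strand: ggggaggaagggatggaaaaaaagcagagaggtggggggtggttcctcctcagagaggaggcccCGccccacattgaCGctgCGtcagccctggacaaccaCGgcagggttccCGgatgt
SAGE1, chrX:135893596-135893715, plus strand: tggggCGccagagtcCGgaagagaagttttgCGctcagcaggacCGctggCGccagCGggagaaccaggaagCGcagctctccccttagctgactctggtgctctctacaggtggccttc
SSX1, chrX:48255272-48255391, plus strand: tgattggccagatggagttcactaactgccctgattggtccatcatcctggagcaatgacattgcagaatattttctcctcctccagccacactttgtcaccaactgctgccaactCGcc

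The 300-base window of MAGEA6 (chrX:152769640-152769939, minus strand) differed from that of MAGEA3 at 0 of 300 positions, so 1 sequence stands for both. These 2 windows held 19 CpG pairs, and those of MAGEC1 and SAGE1 held 14, which is also the median over the 35116 windows of the table. MAGEC2 held 10, the 2 windows of MAGEA12 held 9 and 15, and SSX1 held 5, and 29.6% of all windows held fewer than SSX1. The letters GGATGTG, searched on both strands, occurred in the windows of 6 of the 8 genes (MAGEA3, MAGEA4, MAGEA6, MAGEA12, MAGEC1 and MAGEC2), against 4.29% of all windows. The letters CCGGAT occurred in 5 of 8 (MAGEA4, MAGEA12, MAGEC1, MAGEC2 and SAGE1), against 7.12% of all windows, and matches of these 2 strings can overlap. The string CCGGAA occurred in 3 of 8 (MAGEA3, MAGEA6 and SAGE1), against 17.2%. MAGEA4 and MAGEA12 count as holding a string where any of their several windows did. The SAGE1 window lies inside the gene as placed by GENCODE, so its CpG pairs and matches may not describe its promoter. The strings were chosen after the sequences were seen, and a match is a description of the letters. MAGEA3 and MAGEA6 have the same window but count as 2 genes, and the MAGE genes are related in sequence. The hits are therefore not independent. GGA is the core that ETS transcription factors bind. Methylation and factor binding were not measured here.

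In H1944 the summed level of the 9 genes was higher under GSK126 than under TGF-β1 or in naive cells. The sum was 187, 189 and 198 CPM in GSK126 high libraries and 195, 166 and 170 CPM in GSK126 low libraries. It was 91.5, 105 and 86.8 CPM in TGF-β1 high, 85.8, 87.3 and 99.5 CPM in TGF-β1 low, and 80.3, 109 and 84.8 CPM in naive libraries. Every GSK126 library lay above every TGF-β1 and naive library, and the TGF-β1 and naive libraries overlapped. MAGEA3 and MAGEA12, both active before treatment, made up most of the sum in every library. The sum can therefore hide changes in the other genes, which are given one by one below. In RNA from many cells together, a change in the share of expressing cells and a change in RNA per cell cannot be told apart. Treated libraries came from sorted fractions, so the mean of both gates is not the level of the whole treated culture.

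Of the 8 members that passed the filter on low counts in H1944, 7 rose and 0 fell under GSK126 against naive cells, by edgeR's quasi-likelihood test with Benjamini-Hochberg adjustment over 13621 genes at 0.05. Of all tested genes, 21.5% rose and 18.7% fell in that comparison. SAGE1, SSX1 and MAGEC1 had 0, 1 and 2 counts in naive libraries and owed their place in the test to treated libraries, so the count over those that passed is a description. Without the filter the same 7 passed and MAGEA3 and MAGEA4 did not. Under TGF-β1, 4 of 8 rose, beside 32.1% of all genes that rose, and 1 fell, beside 31.6% of all genes that fell. In either direction together, 5 of 8 passed under TGF-β1, beside 8677 of all 13621 tested genes, so this count is no result about the members. Compared directly, 8 of 8 were higher under GSK126 than under TGF-β1, beside 32.1% of all genes. Both comparisons with naive cells share the same 3 naive libraries.

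**Figure D1:**
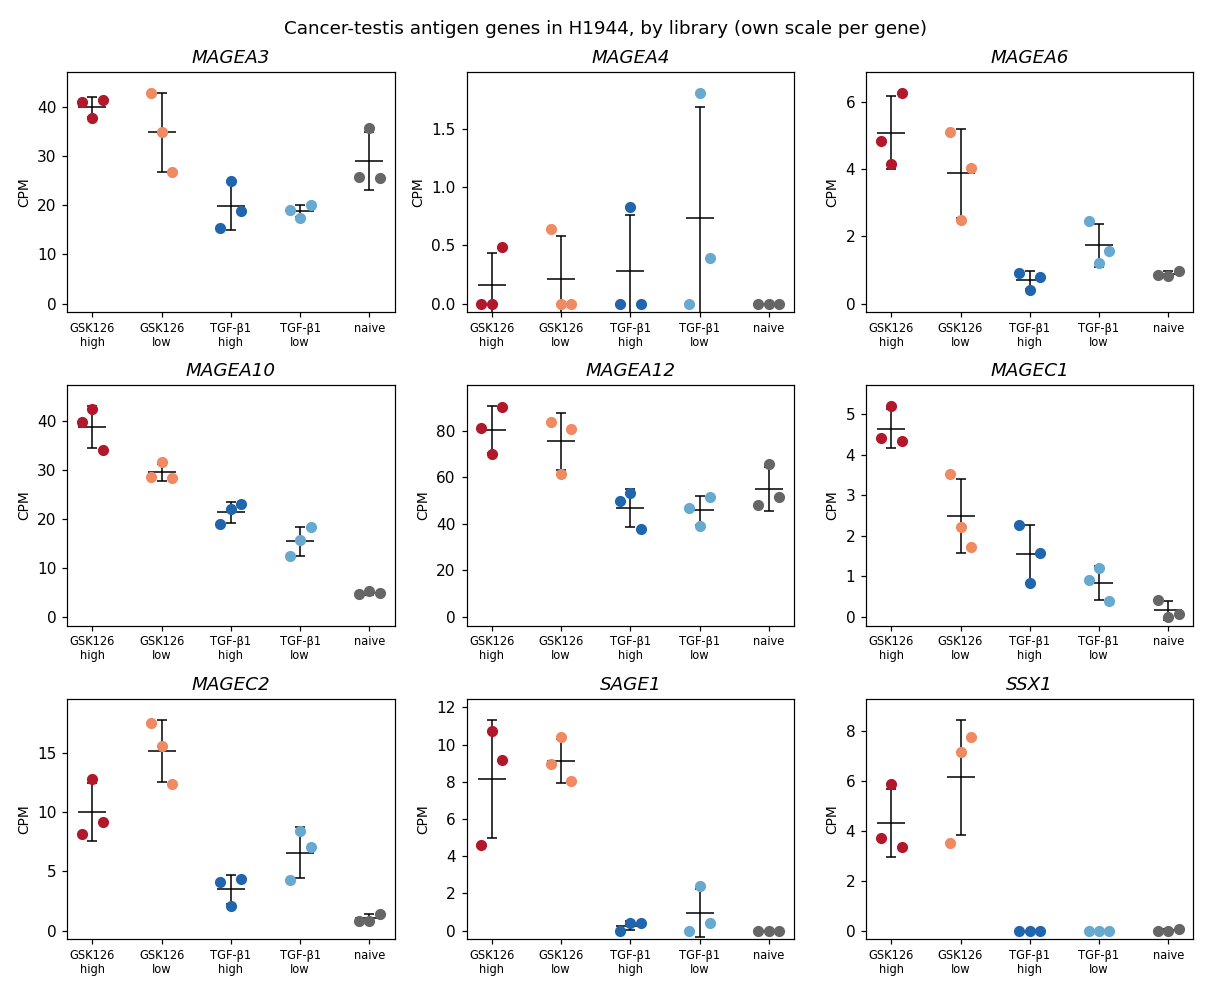
Level of each gene in CPM (vertical axis, its own scale per gene) in the 15 H1944 libraries; points are libraries, the wide bar is the group mean and the whisker the SD (n = 3 per group). For SAGE1 and SSX1 all 6 GSK126 libraries stand at 3.37 CPM or more, while TGF-β1 libraries reach at most 2.41 and 0 CPM and naive libraries at most 0 and 0.0753 CPM.

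The MAGE-A proteins are partners of E3 ubiquitin ligases, and MAGEA3 and MAGEA6 bind the ligase TRIM28. MAGEA3 (chromosome X, 152698752 to 152702347, plus strand, GENCODE 29 on GRCh38) was active in H1944 before treatment. It had 40.9, 37.7 and 41.4 CPM in GSK126 high, 42.7, 34.9 and 26.8 CPM in GSK126 low, 15.4, 25.0 and 18.9 CPM in TGF-β1 high, 18.9, 17.5 and 20.0 CPM in TGF-β1 low, and 25.6, 35.8 and 25.6 CPM in naive libraries. GSK126 and naive libraries overlapped, and each TGF-β1 library lay below each naive and each GSK126 library. The log2 difference between GSK126 and naive cells was 0.28 ± 0.15 (SE, edgeR adjusted p = 0.13), and that between TGF-β1 and naive cells was −0.47 ± 0.16 (adjusted p = 0.0113). The TGF-β1 call ended without naive library B (adjusted p = 0.0747) and with the high gate alone (adjusted p = 0.0557). GSK126 over TGF-β1 gave 0.76 ± 0.14 (adjusted p = 1.15e-05).

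MAGEA6 (chromosome X, 152766136 to 152769747, minus strand) shares much of its sequence with MAGEA3: 36.1% of the 100-base windows of each longest transcript occur in the other, and 54.5% of the 50-base windows. Reads from the shared stretches cannot be placed, so the split between the 2 genes rests on the remainder. MAGEA6 had 4.84, 4.15 and 6.26 CPM in GSK126 high, 5.10, 2.47 and 4.03 CPM in GSK126 low, 0.906, 0.416 and 0.786 CPM in TGF-β1 high, 2.44, 1.20 and 1.57 CPM in TGF-β1 low, and 0.841, 0.832 and 0.979 CPM in naive libraries. It rose by a log2 fold change of 2.08 ± 0.47 under GSK126 against naive cells (SE, edgeR adjusted p = 0.000491) and stood 1.73 ± 0.42 above TGF-β1 (adjusted p = 0.000546). TGF-β1 minus naive was 0.35, which did not pass (adjusted p = 0.619). The higher level under GSK126 than under TGF-β1 did not pass within the low gate alone (log2 0.86, adjusted p = 0.181). With the counts of MAGEA3 and MAGEA6 added together, GSK126 against naive gave 0.40 ± 0.14, which passed (adjusted p = 0.0253).

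MAGEA12 (chromosome X, 152733779 to 152737669, plus strand) was also active in naive H1944 cells. It had 81.1, 70.1 and 90.0 CPM in GSK126 high, 83.9, 61.6 and 80.5 CPM in GSK126 low, 49.8, 53.3 and 37.7 CPM in TGF-β1 high, 46.7, 39.2 and 51.3 CPM in TGF-β1 low, and 47.9, 65.7 and 51.7 CPM in naive libraries. The GSK126 libraries lay above all TGF-β1 libraries, and 1 of them lay below the highest naive library. The log2 fold change of GSK126 over naive cells was 0.39 ± 0.12 (SE, edgeR adjusted p = 0.00994), a call that ended without naive library A (adjusted p = 0.0822), without naive library C (adjusted p = 0.122) and within the low gate alone (adjusted p = 0.057). GSK126 over TGF-β1 gave 0.55 ± 0.11 (adjusted p = 3.25e-05), and TGF-β1 against naive cells gave −0.16 (adjusted p = 0.291). The pseudogene CSAG4 overlaps MAGEA12 on the same strand, where reads cannot be told apart.

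MAGEA10 (chromosome X, 152133310 to 152138578, minus strand), an antigen studied as a target of T cell therapy, rose with both agents. It had 39.8, 42.5 and 34.2 CPM in GSK126 high, 28.7, 31.7 and 28.5 CPM in GSK126 low, 19.0, 22.1 and 23.2 CPM in TGF-β1 high, 12.5, 15.7 and 18.4 CPM in TGF-β1 low, and 4.62, 5.41 and 4.97 CPM in naive libraries. The GSK126, TGF-β1 and naive libraries fell into 3 ranges that did not overlap. The log2 fold changes were 2.65 ± 0.18 for GSK126 over naive cells (SE, edgeR adjusted p = 3.86e-14), 1.93 ± 0.19 for TGF-β1 over naive cells (adjusted p = 1.2e-10) and 0.72 ± 0.12 for GSK126 over TGF-β1 (adjusted p = 6.34e-06). MAGEA10 is overlapped on its own strand by the readthrough transcript MAGEA10-MAGEA5, which holds 14.0% of its 100-base windows.

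MAGEA4 (chromosome X, 151912509 to 151925170, plus strand), the target of an engineered T cell therapy for synovial sarcoma, was close to undetected in H1944. It had 3 counts over the 6 GSK126 libraries (0.149 CPM pooled, exact 95% Poisson interval 0.0307 to 0.435), 6 over the 6 TGF-β1 libraries (0.41 CPM pooled, 0.15 to 0.892) and 0 over the 3 naive libraries, which allows up to 0.166 CPM at 3 counts. The filter removed it, and without the filter neither agent passed against naive cells (adjusted p = 0.542 for GSK126 and 0.174 for TGF-β1). Over the same groups the silent olfactory genes reached at most 1.19, 0.478 and 0.498 CPM pooled per gene, and 95% of them lay at or under 0.198, 0.273 and 0.111 CPM. MAGEA4 lay within that range in each group, though above 95% of these genes under TGF-β1, so no expression clear of background was detectable at this depth. The antisense gene MAGEA4-AS1 overlaps it.

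Of the MAGE-C genes, MAGEC2 encodes another partner of TRIM28 and MAGEC1 an antigen known from multiple myeloma. MAGEC2 (chromosome X, 142202345 to 142205290, minus strand) had 8.13, 12.8 and 9.15 CPM in GSK126 high, 17.5, 15.6 and 12.4 CPM in GSK126 low, 4.08, 2.08 and 4.32 CPM in TGF-β1 high, 4.28, 8.43 and 7.05 CPM in TGF-β1 low, and 0.841, 0.832 and 1.43 CPM in naive libraries. Every treated library lay above every naive library, while 1 TGF-β1 low library lay within the GSK126 range. MAGEC2 rose by 3.16 ± 0.34 on the log2 scale under GSK126 (SE, edgeR adjusted p = 2.37e-09) and by 1.97 ± 0.39 under TGF-β1 (adjusted p = 4.29e-05), and GSK126 stood 1.20 ± 0.24 above TGF-β1 (adjusted p = 5.86e-05).

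MAGEC1 (chromosome X, 141903894 to 141909388, plus strand) had 4.40, 5.18 and 4.33 CPM in GSK126 high, 3.51, 2.23 and 1.73 CPM in GSK126 low, 2.27, 0.833 and 1.57 CPM in TGF-β1 high, 0.916, 1.20 and 0.392 CPM in TGF-β1 low, and 0.42, 0 and 0.0753 CPM in naive libraries. The naive libraries held 2 counts in all, so the ratios are wide: pooled CPM was 31.3 times the naive level under GSK126 (exact 95% counting interval 8.36 to 264, 70 counts) and 10.5 times under TGF-β1 (2.49 to 93.6, 17 counts). Both passed by edgeR (adjusted p = 8.06e-06 for GSK126 and 0.00315 for TGF-β1). The TGF-β1 call ended without naive library C (adjusted p = 0.109). GSK126 over TGF-β1 gave a log2 fold change of 1.39 ± 0.45 (SE, adjusted p = 0.00842), and did not pass within the low gate alone (adjusted p = 0.0994).

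SAGE1 (chromosome X, 135889205 to 135913061, plus strand) encodes a sarcoma antigen whose protein binds the Integrator complex. It had 4.62, 10.7 and 9.15 CPM in GSK126 high and 8.93, 10.4 and 8.05 CPM in GSK126 low libraries. TGF-β1 high libraries had 0, 0.416 and 0.393 CPM, TGF-β1 low libraries 0, 2.41 and 0.392 CPM, and each naive library 0 CPM. The GSK126 libraries stood apart from all others: 169 counts over 6 libraries, against 7 over the TGF-β1 and 0 over the naive libraries. Pooled CPM under GSK126 was at least 50.4-fold higher than in naive cells, set against a floor of 3 counts over the naive group, and 17.5 times the TGF-β1 level (exact 95% counting interval 8.32 to 44.2). The edgeR adjusted p was 1.11e-08 against naive cells and 5.57e-08 against TGF-β1. The TGF-β1 libraries passed against naive cells (adjusted p = 0.0201) on those 7 counts, of which 4 lay in low library B. Their pooled level of 0.478 CPM equals that of the highest of the 381 silent olfactory genes in the TGF-β1 libraries. The median of those genes was 0 CPM and 95% of them lay at or under 0.273 CPM. SAGE1 under TGF-β1 thus stood at the top of the background range and not above it. Low library B had the most olfactory signal of these libraries, 63.2 CPM, and the part of background reads in the 7 counts was not tested. The TGF-β1 call ended without low library B (adjusted p = 0.0769), without high library B (0.056), without high library C (0.0536) and without naive library C (0.162), and with the high gate alone (0.0944).

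SSX1 (chromosome X, 48255317 to 48267444, plus strand) encodes a transcriptional repressor of germ cells, known as the fusion partner of SS18 in synovial sarcoma. It lies on the other arm of the X chromosome from the rest. It had 3.74, 5.87 and 3.37 CPM in GSK126 high and 3.51, 7.17 and 7.77 CPM in GSK126 low libraries. No read fell on SSX1 in any of the 6 TGF-β1 libraries, which allows up to 0.205 CPM at 3 counts over the group, and naive libraries had 0, 0 and 0.0753 CPM from 1 count. GSK126 libraries held 108 counts. Their pooled CPM was 96.7 times the naive level with an exact 95% counting interval of 17.0 to 3854, and at least 26.1-fold higher than under TGF-β1. The edgeR adjusted p was 5.27e-07 against naive cells and 3.59e-08 against TGF-β1, and SSX1 did not pass between TGF-β1 and naive cells (adjusted p = 0.405), where both groups lay under the floor.

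**Figure D2:**
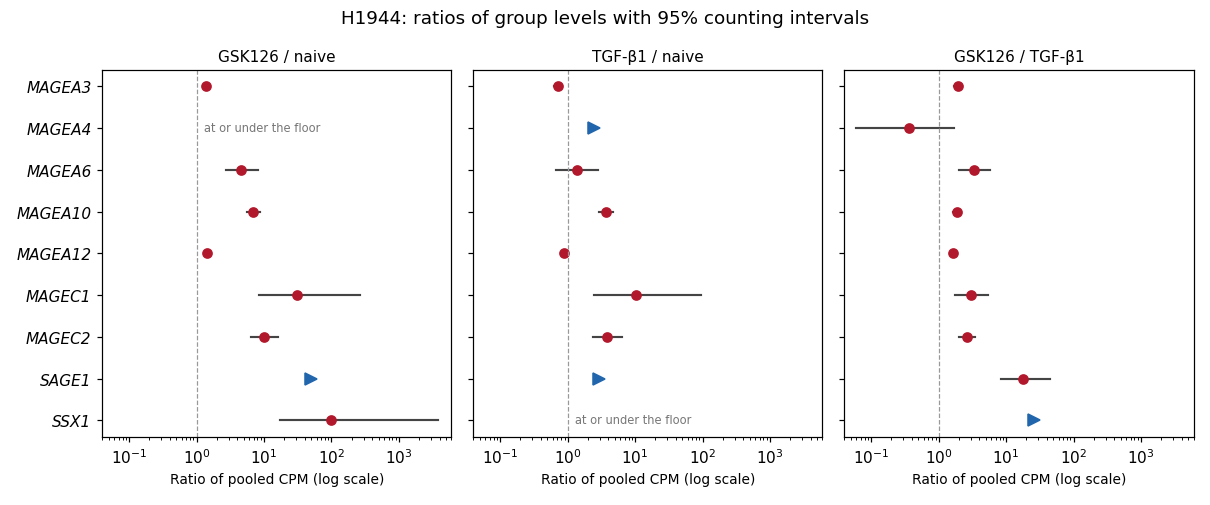
Ratio of pooled CPM in H1944 (horizontal axis, log scale) for GSK126 over naive, TGF-β1 over naive and GSK126 over TGF-β1; red points are ratios with exact 95% counting intervals, and blue arrows are lower bounds set against 3 counts where the divisor is at 0. GSK126 over TGF-β1 lies above 1 for every gene but MAGEA4, from 1.65 for MAGEA12 to the bound of 26.1 for SSX1.

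No member passed the test between mVenus-high and mVenus-low cells of H1944. Between high and low cells under GSK126, 0 of 8 members passed, beside 6.93% of all genes in either direction, and under TGF-β1 0 of 8 passed, beside 0.0587%. Before adjustment, MAGEA10 was higher in the high than in the low cells with both agents, by log2 differences of 0.40 ± 0.15 under GSK126 (SE, unadjusted p = 0.0134, edgeR adjusted p = 0.111) and 0.50 ± 0.20 under TGF-β1 (unadjusted p = 0.0156, adjusted p = 0.851). In both cases the 3 high and the 3 low libraries did not overlap. MAGEC2 went the other way, with −0.60 ± 0.28 under GSK126 (unadjusted p = 0.0379, adjusted p = 0.198) and −0.82 ± 0.40 under TGF-β1 (unadjusted p = 0.0507, adjusted p = 0.938). Over all 13621 tested genes, the unadjusted edgeR p was under 0.05 for 2932 between GSK126 gates and for 701 between TGF-β1 gates. MAGEA10 and MAGEC2 are named because they had the smallest unadjusted p of the members with both agents. Their differences did not pass the adjusted test and are a description. The mVenus transcript itself differed by 1.83 ± 0.10 and 1.59 ± 0.09 between high and low cells under GSK126 and TGF-β1.

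In A549 the 9 genes were low in all groups, within the range of single silent olfactory genes, though some lay above 95% of those genes. Their summed level was 2.67 and 0 CPM in GSK126 high, 5.44, 4.97 and 4.75 CPM in GSK126 low, 0.999, 18.6 and 2.62 CPM in TGF-β1 high, 5.60 and 5.62 CPM in TGF-β1 low, and 9.71, 1.45 and 2.74 CPM in naive libraries. The libraries with the most counts on these genes were those with the most counts on silent olfactory genes. TGF-β1 high B and naive A held 151 of the 340 member counts (44.4%), 45.6% of the silent olfactory counts and 17.1% of all counts. In H1944 the sum did not run with the olfactory signal in this way: the GSK126 library with 75.1 CPM of olfactory signal and the one with 5.74 CPM had 198 and 195 CPM of the 9 genes.

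**Figure D3:**
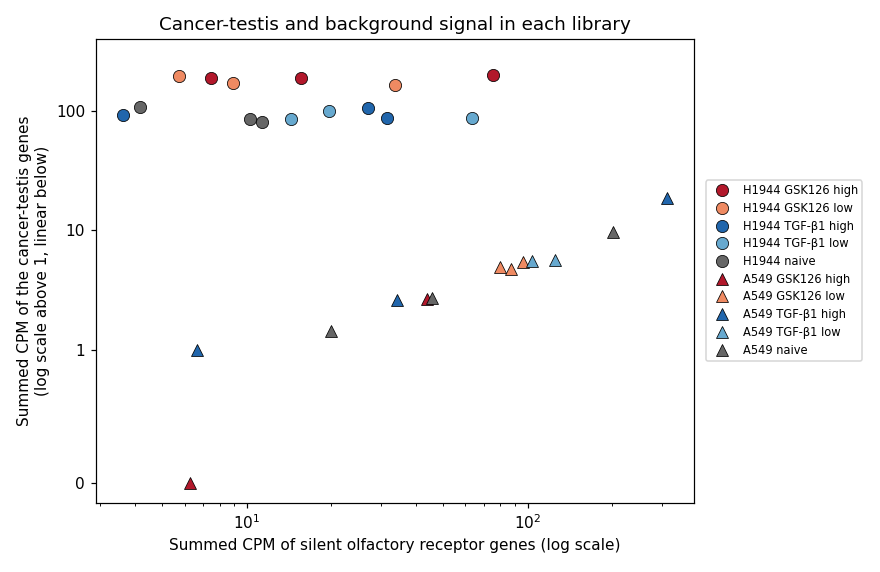
Summed CPM of the 9 genes (vertical axis, log scale above 1 and linear below) against summed CPM of 381 silent olfactory receptor genes (horizontal axis, log scale) in all 28 libraries; circles are H1944, triangles are A549, and colours are groups. The A549 libraries run from 0 CPM at 6.27 CPM of background to 18.6 CPM at 313 CPM, and the H1944 libraries lie at 80.3 CPM or more at every background level.

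The A549 fit kept only MAGEC1, which did not pass in any of the 5 comparisons within the line. These were GSK126 against naive cells (6.77% of all genes passed in either direction), TGF-β1 against naive cells (19%), GSK126 against TGF-β1 (19.3%), and high against low cells under GSK126 and under TGF-β1 (0% each, with 986 and 197 genes under an unadjusted p of 0.05, and 0 and 15 genes by DESeq2). MAGEC1 pooled to 0.722 CPM under GSK126, 1.19 CPM under TGF-β1 and 1.42 CPM in naive cells, from 11, 37 and 29 counts. Without the filter, 0 of 9 members passed for either agent against naive A549 cells. For TGF-β1 against naive cells, counting intervals of the ratio of pooled CPM lay above 1 for MAGEA4 (31 and 6 counts, 3.38, exact 95% interval 1.39 to 9.91) and SAGE1 (43 and 9 counts, 3.12, 1.5 to 7.29). MAGEA3 had 13 and 2 counts and a ratio of 4.25 (0.962 to 38.8). Without the 2 libraries rich in background MAGEA4 gave 1.64 (0.508 to 6.92). SAGE1 then had 23 and 2 counts and a ratio of 5.82 (1.44 to 50.9), and 20 of those 23 counts lay in the low libraries. With no filter its edgeR adjusted p against naive cells was 0.861. Counting intervals leave out the spread between libraries, and the part of background reads in these ratios was not tested.

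**Figure D4:**
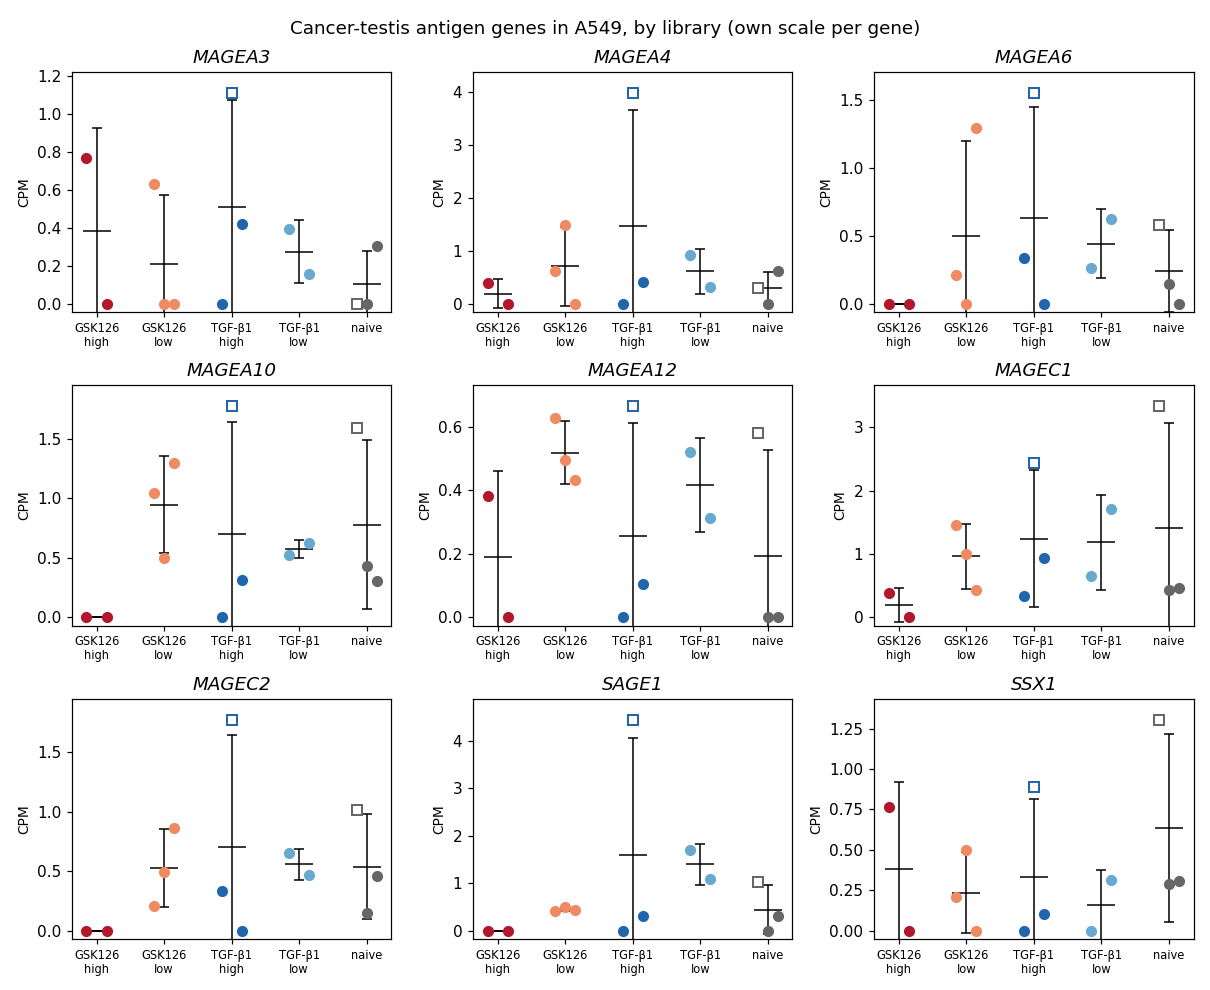
Level of each gene in CPM (vertical axis, its own scale per gene) in the 13 A549 libraries; points are libraries, open squares are the 2 libraries rich in background reads, the wide bar is the group mean and the whisker the SD (n = 2 or 3). No library exceeds 4.43 CPM for any gene, and in all 9 panels the highest point is an open square.

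The effect of GSK126 differed between the lines for 5 of the 8 members tested in a joint fit of all 28 libraries: the difference was positive for MAGEA10, MAGEC1, MAGEC2, SAGE1 and SSX1, beside 6.18% of 17918 genes. The A549 filter had removed all members but MAGEC1, so the others entered the joint fit through H1944 libraries, and the count is a description. For MAGEA10 the difference of the 2 log2 effects was 4.94 ± 0.91 (SE, edgeR adjusted p = 0.000306). The A549 side of each difference is a contrast between levels near background, so its size depends on how counts near 0 are handled. None of the 5 was called in A549, where MAGEA10 without the filter gave −2.42 ± 1.52 (adjusted p = 0.706), and this value among background counts adds to the difference beyond the H1944 rise of 2.65. For the effect of TGF-β1, 1 of 8 passed, MAGEA10 with 2.26 ± 0.60 (adjusted p = 0.00646), beside 10.5% of all genes. That call ended without the 2 A549 libraries rich in background (adjusted p = 0.0882) and without naive A549 library A, which is 1 of them (adjusted p = 0.268).

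Most of the other X-linked cancer-testis genes tested in H1944 also rose under GSK126. From a list of 82, 9 passed the filter: 8 rose and 0 fell under GSK126 against naive cells, 3 rose and 1 fell under TGF-β1, and 8 were higher under GSK126 than under TGF-β1 and 0 lower. Over all genes 21.5% rose and 18.7% fell under GSK126, and 32.1% rose and 31.6% fell under TGF-β1. Between the agents, 32.1% were higher and 31.6% lower under GSK126 than under TGF-β1. SPANXB1 and CTAG2 had naive means under 1 CPM, and a gene that passes the filter through the libraries where it is high tends to be called, so these counts are a description. VCX, a germ cell gene with close copies, averaged 49.6 ± 6.71 CPM under GSK126, 22.6 ± 2.09 CPM under TGF-β1 and 14.95 ± 2.53 CPM in naive cells (SD, n = 6, 6 and 3). CTAG2, a homologue of the antigen NY-ESO-1, averaged 4.50 ± 1.15, 0.488 ± 0.63 and 0.757 ± 0.43 CPM in those groups. SPANXB1, a sperm protein gene with near-identical copies, averaged 10.8 ± 6.86, 3.55 ± 0.90 and 0.291 ± 0.25 CPM. CT83, the gene that fell under TGF-β1, averaged 6.03 ± 1.77, 2.71 ± 1.55 and 6.16 ± 0.97 CPM. The median log2 fold change of the 9 under GSK126 against naive cells was 2.51, beside 0.00 over all genes. Reads of VCX, VCX3A, VCX3B and SPANXB1 may be split among their copies.

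Of 58 matched cancer-testis and germline genes outside the X chromosome, 10 passed the filter. Of these, 1 rose and 0 fell under GSK126, beside 21.5% and 18.7% of all genes. Under TGF-β1 3 rose and 2 fell, beside 32.1% and 31.6%. PRAME, an antigen of melanoma and lung cancer, averaged 26.0 ± 2.89 CPM under GSK126, 33.4 ± 3.15 CPM under TGF-β1 and 19.3 ± 2.67 CPM in naive cells (SD, n = 6, 6 and 3). It passed under TGF-β1 (log2 0.83 ± 0.14 SE, edgeR adjusted p = 3.09e-06) and did not pass under GSK126 (0.28 ± 0.14, adjusted p = 0.0974). SPA17, a sperm protein gene, was the 1 that rose under GSK126 (0.51 ± 0.18, adjusted p = 0.0265). Over all tested genes of the X chromosome, members included, 139 of 446 rose under GSK126 (31.2%) and 51 fell, and 36.1% rose under TGF-β1.

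Most markers of other cell types were low in H1944. Only 2 of them were tested, PECAM1 and HBA2, and neither was called higher under either agent. The 8 germ cell markers, such as the RNA helicase DDX4 and the protamines PRM1 and PRM2, summed to between 0 and 6.74 CPM in GSK126, 0 and 6.63 CPM in TGF-β1 and 0.416 and 1.58 CPM in naive libraries, and none passed the filter. DDX4 averaged 1.08 and 0.33 CPM in GSK126 high and low, 0.817 and 1.53 CPM in TGF-β1 high and low, and 0.0502 CPM in naive libraries, while PRM1 was at 0 in all 15 libraries. The part of germ cell markers in the members' rise was not tested. The 10 leukocyte, endothelial and red cell markers summed to between 6.15 and 24.6 CPM under GSK126, 0.906 and 12.6 CPM under TGF-β1 and 26.2 and 32.5 CPM in naive cells. The 2 that passed the filter, PECAM1 and HBA2, fell with both agents from means of 14.5 and 10.8 CPM in naive libraries. Of 5 tested lung and epithelial markers, 0 rose and 2 (KRT19 and KRT7) fell under GSK126 as the mean of both gates. Over all genes 21.5% rose and 18.7% fell there. KRT19 averaged 25.5 CPM in GSK126 high, 0.751 CPM in GSK126 low and 18.2 CPM in naive libraries, and KRT7 averaged 167, 63.3 and 124 CPM, so of the GSK126 cells the low ones were below naive. All 5 fell under TGF-β1, where EPCAM fell by 2.93 ± 0.16 on the log2 scale (SE, edgeR adjusted p = 1.77e-17).

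A list of 37 genes of DNA methylation and germline gene repression also holds the DNA demethylases TET1 and TET3. Of its 35 tested genes 8 rose and 2 fell under GSK126, and 13 rose and 6 fell under TGF-β1. The shares that rose were near the 21.5% and 32.1% over all genes, so they are no result about the list. Over all genes 18.7% fell under GSK126 and 31.6% under TGF-β1. DNMT1, the maintenance DNA methyltransferase, fell under TGF-β1 (log2 fold change −0.65 ± 0.08 SE, edgeR adjusted p = 2.47e-08) and was 0.77 ± 0.07 higher under GSK126 than under TGF-β1 (adjusted p = 1.12e-11). UHRF1, which brings DNMT1 to replicating DNA, rose under GSK126 (0.83 ± 0.12, adjusted p = 6.71e-07). MGA, a subunit of the repressor PRC1.6 that silences germline genes, fell with both agents, by 0.67 ± 0.09 under GSK126 (adjusted p = 1.23e-07) and by 0.90 ± 0.09 under TGF-β1 (adjusted p = 1.27e-10). Among 14 tested genes of PRC2 and of the opposing H3K27 demethylases, 4 rose and 4 fell under GSK126, beside 21.5% and 18.7% of all genes. Under TGF-β1 2 rose and 3 fell, beside 32.1% and 31.6% of all genes. The demethylase KDM6A is among those that fell with both agents, and KDM6B among those that rose under TGF-β1. JARID2, an accessory subunit, rose by 0.81 ± 0.11 under GSK126 and by 2.40 ± 0.11 under TGF-β1. Of 7 tested MAGE genes that most tissues express, 4 rose and 1 fell under GSK126, beside 21.5% and 18.7% of all genes. NDN was among those that rose (2.30 ± 0.40, edgeR adjusted p = 1.38e-05). Under TGF-β1 3 rose and 1 fell, beside 32.1% and 31.6% of all genes.

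The nearest genes on either side of the members differed in level and pattern. CSAG1, which starts 44 bases from MAGEA12 on the other strand, averaged 41.7 and 33.4 CPM in GSK126 high and low, 26.9 and 30.1 CPM in TGF-β1 high and low, and 26.6 CPM in naive libraries of H1944. In the same groups GABRE, a GABA receptor subunit gene between MAGEA4 and MAGEA10, averaged 105, 114, 59.8, 59.6 and 73.3 CPM. GABRQ, next to MAGEA3, averaged 12.9, 8.65, 14.8, 17.0 and 0.366 CPM. CT45A10, which starts 119 bases from the GENCODE start of SAGE1 on the other strand, averaged 0.16, 1.37, 0.131, 0 and 0 CPM. MAGEC3, next to MAGEC1, stayed at or below 0.56 CPM in each group.

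Over the 15 H1944 libraries, the genes whose level followed the summed level of the members most closely among 19615 compared were ALOX5, TMEM109, TNS3, TENM3 and FHDC1, with Pearson's r from 0.969 to 0.983 on log2 CPM. ALOX5, the gene of 5-lipoxygenase, averaged 19.5 and 19.0 CPM in GSK126 high and low, 3.36 and 3.30 CPM in TGF-β1 high and low and 3.38 CPM in naive libraries. TENM3, a teneurin, averaged 80.1, 76.3, 1.80, 1.16 and 0.304 CPM in these groups. Over the 13 A549 libraries the closest genes were MYH13, DPP6, CATSPERG, IL16 and DNAH10, with r from 0.981 to 0.988. The points within a group share a treatment, and each point takes both values from 1 library. In H1944 the summed level is mostly that of MAGEA3 and MAGEA12.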

How the data were processed

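The deposited table holds integer read counts per gene, 1 column for each of 28 libraries. Per the labels' protocols, libraries were made from 10 ng of total RNA with a stranded kit for low input. Per the submitters' processing notes, the authors used bcl2fastq 2.20.0, STAR 2.6.0c, HTSeq 0.12.3 and the GRCh38 build; the annotation release, the strand setting and any trimming are not given in the sources used here. The deposited counts hold no column for A549 library C of GSK126 high or library B of TGF-β1 low, and no column was left out here. The reporter's row was fitted with the genes but is in no count of genes.

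From these counts, genes of each line were tested with edgeR 4.0.16 (limma 3.58.1, R 4.3.3): filterByExpr, TMM factors, a quasi-likelihood F test over the 5 groups of a line, treated groups as the mean of both sorted gates, Benjamini-Hochberg adjustment over all genes and a threshold of 0.05. A joint model of all 28 libraries and 10 groups gave the line differences. SEs are the log2 fold change over the root of the F statistic. CPM uses the deposited totals. Group levels carry exact Poisson intervals, ratios of pooled CPM carry exact conditional intervals at 95%, and a group at 0 is set to a floor of 3 counts over the group. Reads without molecular identifiers are not independent molecules, so intervals and floors cover counting error only. Likeness used Pearson's r on log2(CPM + 1) over genes with a mean of at least 1 CPM in a group.

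The members and lists were chosen with earlier results of these data known, as were the silent olfactory genes (group means below 5 CPM) and the level of 150 CPM. Genes named beside the members are the 4 of smallest adjusted p of each list per comparison or fewer, nearest neighbours, the 5 most alike per line, mVenus and EZH2. KRT8, KRT18, NKX2-1, DDX4, PRM1 and PRM2 were named as identity checks after their values were seen. Symbols, coordinates and transcripts came from GENCODE 29. Fits were tested on simulated counts. Alternatives were RLE factors, no filter, a filter at 1 CPM in 2 libraries, DESeq2 1.42.0, a block by replicate letter, MAGEA3 and MAGEA6 summed, the compared groups alone, each gate alone, no background-rich A549 libraries, and each library left out in turn.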

Additional observations from a re-analysis of the deposited data

Results flagged for a closer look

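For 6 results the effect of an agent differed between H1944 and A549 by the test of the difference itself, in the joint edgeR fit of all 28 libraries. For GSK126 the log2 effect in H1944 minus that in A549 was 4.94 for MAGEA10 (adjusted p = 0.000306), 5.98 for MAGEC1 (adjusted p = 0.00306) and 5.56 for MAGEC2 (adjusted p = 0.00271). It was 10.17 for SAGE1 (adjusted p = 0.00141) and 7.04 for SSX1 (adjusted p = 0.00465). Each of the 5 rests on groups at or near 0: naive H1944 cells had 0 counts of SAGE1, 1 of SSX1 and 2 of MAGEC1, and A549 GSK126 high cells had 0 of MAGEA10, MAGEC2 and SAGE1. All 5 values therefore depend on how the fit treats counts near 0 and are no bounds. Over the 35 alternatives these 5 differences stayed past the threshold, with a largest adjusted p of 0.0349. For TGF-β1 the difference was 2.26 for MAGEA10 (adjusted p = 0.00646), and 1.96 without the 2 A549 libraries rich in background reads, which did not pass (adjusted p = 0.0882). Without A549 naive library A alone it was 1.35 (adjusted p = 0.268).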

How the results depend on the processing

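Of 1566 member values recomputed under an alternative, 1545 kept their side of the threshold, 15 lost the call and 6 gained it. A change of direction was counted only where a value was called, and there were 0 of these. Values that were not called could change sign. MAGEA6 for TGF-β1 against naive H1944 cells, for example, ran from −0.31 to 1.02. In H1944, 6 to 7 members passed for GSK126 against naive cells and 6 to 8 for GSK126 against TGF-β1. For TGF-β1 against naive cells 5 passed, 3 with the compared groups alone (where the filter left MAGEC1 and SAGE1 untested), 3 with the high gate alone, and 3 to 5 with a library left out (3 without naive library C). For the TGF-β1 effect between lines 1 passed, 2 by DESeq2, 0 without the background-rich A549 libraries, and 1 to 3 with a library left out. Replicate letters were not taken as pairs: same-letter deviations between H1944 GSK126 high and low libraries correlated at 0.00041 to 0.13. With a replicate block 7, 5 and 8 members passed in the 3 main H1944 comparisons, the same numbers as without it.

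Among all genes, A549 GSK126 against naive cells gave 1344 calls, 2281 by DESeq2, 2648 without the background-rich libraries, 2212 with the compared groups alone, 852 in the low gate, and 627 to 2040 with a library left out. With the low gate alone, A549 TGF-β1 against naive gave 2383 (3775 with both gates) and A549 GSK126 against TGF-β1 gave 1413 (3838; 2100 to 4788 with a library left out). Between A549 gates 0 genes passed, 16 (GSK126) and 3 (TGF-β1) without the filter, 18 (GSK126) with those groups alone, and 15 by DESeq2, 53 without the background-rich libraries and 0 to 6 with a library left out (TGF-β1). Between H1944 gates, GSK126 gave 944 (570 without the filter, 428 with those groups alone, 308 to 1374 with a library left out) and TGF-β1 gave 8 (13, 26, and 0 to 12). The causes were not tested. MAGEA4 in H1944 and the members in A549 lay near background, which limits what can be read from them.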
